A study of Mus musculus with 4 samples.

Results

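Complement is the set of plasma and membrane proteins that tags cells and microbes for clearance, and several of its components and of the proteins that restrain it are made outside the liver, fibroblasts included. Transcript levels of 6 such genes, namely C3, C4b, C1s, C1r, Cfb and Serping1, were examined in mouse embryonic fibroblast (MEF) lines with and without inositol hexakisphosphate kinase 1 (IP6K1). The genes were chosen by name, with earlier results of these data known, and every array probe carrying one of these names was taken. This gave 8 probes of 6 genes, out of 41174 probes and 27827 gene names on the array.

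The study compared 2 Ip6k1+/+ with 2 Ip6k1-/- MEF lines, each measured in exponential growth on 1 single-colour Agilent array. Each line came from a different embryo at embryonic day 14, all 4 embryos from a single mating of heterozygous parents, so that littermates stood behind every comparison. All 4 lines, controls included, were immortalised with SV40 large T antigen and had been frozen, thawed and passaged before harvest. The replicate numbers only name the lines (line 1 and line 2 of each genotype), and p-values measure the spread between embryo-derived lines, of which a genotype had 2.

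In the classical pathway, C1q bound to its target activates the protease C1r, which cleaves C1s, which in turn cleaves C4 and C2 to build an enzyme that splits C3. In the alternative pathway, factor B (encoded by Cfb) pairs with C3b to form the amplifying convertase, and the C1 inhibitor (encoded by Serping1) blocks C1r, C1s and proteases of the contact and lectin systems. Several of these genes are acute-phase genes, induced by interleukin 6, interleukin 1 and interferons through C/EBP, NF-kappa B, STAT and IRF factors.

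The probes that carry the results below are shown here because each reads a short stretch of the transcript, and a signal refers to that stretch only. They are 60 bases long, are written 5′ to 3′ in lower case in the sense of the transcript as the array files give them, and have positions in the mm9 build named by those files.
C3 probe A_51_P110301, chr17:57343416-57343475, minus strand: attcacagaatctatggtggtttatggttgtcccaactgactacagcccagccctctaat
C4b probe A_51_P428708, chr17:34866361-34866420, minus strand: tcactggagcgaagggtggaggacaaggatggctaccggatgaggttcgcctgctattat
C1s probe A_52_P634218, chr6:124481467-124481526, minus strand: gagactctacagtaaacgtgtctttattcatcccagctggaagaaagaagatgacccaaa
Cfb probe A_51_P413866, chr17:34993502-34993858, minus strand: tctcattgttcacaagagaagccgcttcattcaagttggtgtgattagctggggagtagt
Serping1 probe A_51_P376238, chr2:84605968-84607474, minus strand: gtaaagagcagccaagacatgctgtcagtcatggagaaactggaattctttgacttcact
The position of the Serping1 probe covers 1447 bases more than the probe itself, and that of the Cfb probe 297 more, as for probes laid across an exon junction. The other C1s probe (A_51_P208793, chr6:124480828-124480887) and the C1r probe (A_51_P384318, chr6:124473052-124473111, plus strand) lie 7.7 kb from each other on opposite strands. The second C3 probe (A_52_P133594, chr17:57364538-57364695) lies 21.1 kb from the first. The accessions listed for the C4b probe also include those of the neighbouring paralog C4a, so that the signal is read as C4b with that reservation. The current symbols of the genes called C1s and C1r on the array are C1s1 and C1ra, and whether their close copies contribute signal was not tested.

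Signals are given as log2 of the background-corrected intensity minus the 75th percentile of that array, so that a value of 0 is a probe at the 75th percentile and negative values are dimmer. A probe is called detected on an array where the extraction software flagged it as well above background. Levels of different probes are not set against each other. The 75th percentiles lay between 607 and 746 intensity units, and 21405 to 22857 probes were well above background on an array. The Ip6k1 transcript itself followed the labels: probe A_51_P213766 was at least 34.1-fold and probe A_52_P413035 at least 32.8-fold higher in Ip6k1+/+ lines, with no Ip6k1-/- array well above background (limma adjusted p = 0.0347 for each). Both probes passed the filter through the Ip6k1+/+ arrays alone, so these p-values rest in part on undetected readings and are no support. Probe A_51_P103718 differed by -4.14 but stayed above background, and which of these probes lie in the disrupted part of the gene is not given in the sources used here. All 11 fibroblast marker genes were above background in 3 lines and 10 of 11 in Ip6k1-/- line 2, with summed linear signals, as multiples of the 75th percentile, of 495 to 577. Among 11 leukocyte marker genes 4 or 5 were above background in each line, with summed signals of 0.909 to 1.22. Cd68, Csf1r, Lyzs, Cd14, Fcer1g and Cd74 were the 6 above background on at least 1 array, 4 of them on all 4 arrays. Ptprc, Emr1, Itgam, Tyrobp and Aif1 were not above background in any.

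The means of all 6 complement probes that could be tested were lower in Ip6k1-/- than in Ip6k1+/+ MEFs, except that C1s probe A_52_P634218 turned to 0.18 under normexp background correction and to 0.17 with dim values raised to a floor. No difference was larger than the spread between lines by the limma test. Serping1 had the largest difference, -2.25 on the log2 scale, and was the only member whose genotypes did not overlap. C4b and C3 differed by -1.24 and -1.27, C1r by -0.77, and the C1s probes by -0.69 and -0.31. A probe was tested if both arrays of either genotype detected it well over background, which held for 6 of the 8 probes, from 5 of the 6 genes. None was called by limma at an adjusted p of at most 0.05 (adjusted p = 0.994 for each, over 21572 probes, of which 3 or 0.0139% were called), and none had an unadjusted p under 0.05, which 3.35% of all probes tested had. The 6 differences below 0 stand beside 44.1% of all probes tested, and their median was -1.00 beside 0.05 over all probes. Because the members were chosen with earlier results of these data known, these figures are a description only. C1s also enters them with both of its probes.

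**Figure D1:**
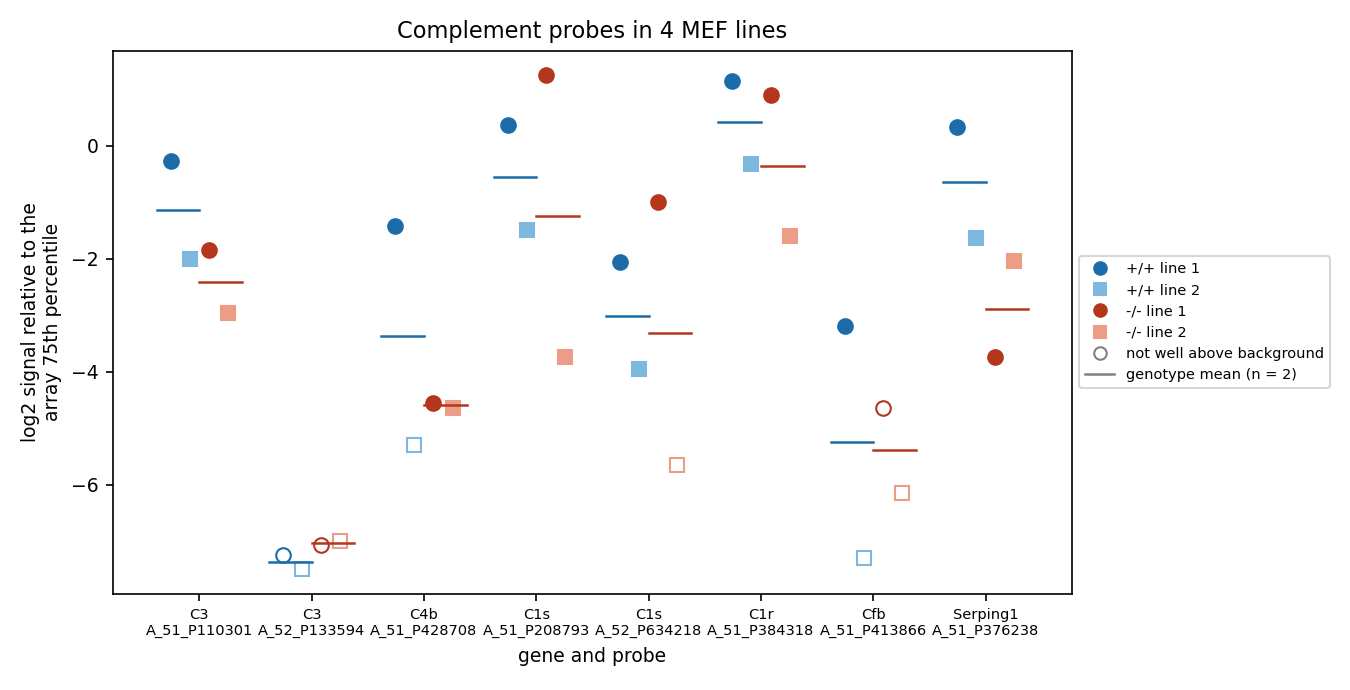
Log2 signal relative to the 75th percentile of the array (y axis) for the 8 complement probes (x axis) in the 4 MEF lines. Filled symbols are well above background, open symbols are not, and short lines are genotype means (n = 2 lines). Ip6k1+/+ line 1 is the highest line for C3 (A_51_P110301), C4b, C1r, Cfb and Serping1, and Ip6k1-/- line 1 for C1s.

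C3 is the component on which all complement pathways converge. Its probe A_51_P110301 read -0.27 and -2.00 in Ip6k1+/+ lines 1 and 2, and -1.84 and -2.96 in Ip6k1-/- lines 1 and 2. Ip6k1+/+ line 1 stood above the other three, and Ip6k1+/+ line 2 lay just below Ip6k1-/- line 1, so that the genotypes overlapped. The genotype means were -1.13 ± 1.22 and -2.40 ± 0.79 (SD, n = 2 lines each). The difference was -1.27 (standard error 0.72, 95% interval -3.16 to 0.62, limma unadjusted p = 0.143), which is 2.41-fold lower in Ip6k1-/- MEFs. This probe was spotted 10 times on each array, and the SD between spots of an array was 0.05 to 0.12, which covers spotting only. The gap was 1.73 between the Ip6k1+/+ lines and 1.12 between the Ip6k1-/- lines. The second C3 probe was dim throughout, at -7.49 to -6.99 and never well above background, and gives no comparison.

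C4b encodes the C4 component that is split by C1s and becomes part of the classical C3 convertase. It read -1.42 in Ip6k1+/+ line 1, -5.29 in Ip6k1+/+ line 2, where it was not well above background, and -4.55 and -4.64 in the Ip6k1-/- lines. Both Ip6k1-/- readings lay between those of the Ip6k1+/+ lines, and the high value belonged to a single line. The Ip6k1-/- readings were near the lowest signal well above background on their arrays, -4.75 and -4.67. Their closeness and their place above Ip6k1+/+ line 2 are therefore not read as measured. The difference of means was -1.24 (standard error 1.30, 95% interval -4.63 to 2.15, limma unadjusted p = 0.386). The Ip6k1+/+ lines differed from each other by 3.87, or 14.6-fold, a gap that rests on the undetected reading of Ip6k1+/+ line 2.

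Cfb, the protease subunit of the alternative pathway convertase, was well above background in Ip6k1+/+ line 1 only, at -3.18. The other readings were -7.29 in Ip6k1+/+ line 2, -4.63 in Ip6k1-/- line 1 and -6.14 in Ip6k1-/- line 2, none of them well above background. The probe was therefore not tested, and no fold is given because the bound from the dim arrays is below 1. As with C4b, the line that carried the signal was Ip6k1+/+ line 1.

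C1s and C1r encode the paired serine proteases of the C1 complex. Probe A_51_P208793 of C1s read 0.37 and -1.48 in Ip6k1+/+ lines, against 1.25 and -3.74 in Ip6k1-/- lines. The highest and the lowest value thus both belonged to Ip6k1-/- lines, which differed by 4.98, or 31.6-fold. Probe A_52_P634218 of C1s repeated this order, with -2.05 and -3.95 in Ip6k1+/+ lines, against -0.98 and -5.64 in Ip6k1-/- lines, the last not well above background. C1r read 1.16 and -0.31 in Ip6k1+/+ lines, against 0.90 and -1.60 in Ip6k1-/- lines. In each genotype line 1 was the higher for C1s and C1r, by 1.47 to 1.90 among Ip6k1+/+ and by 2.50 to 4.98 among Ip6k1-/- lines. The genotype difference was -0.77 for C1r (95% interval -3.30 to 1.76, limma unadjusted p = 0.463). It was -0.69 for the first C1s probe (95% interval -5.25 to 3.87, limma unadjusted p = 0.711). For the second C1s probe it was -0.31 (95% interval -4.65 to 4.03, limma unadjusted p = 0.860), and these intervals hold changes of many-fold in either direction.

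Serping1 encodes the C1 inhibitor. It read 0.34 and -1.63 in Ip6k1+/+ lines, against -3.73 and -2.04 in Ip6k1-/- lines, and was well above background on every array. Each Ip6k1-/- line was below each Ip6k1+/+ line, although Ip6k1-/- line 2 lay only a little under Ip6k1+/+ line 2. The genotype means were -0.64 ± 1.39 and -2.89 ± 1.19 (SD, n = 2 lines each), a 4.74-fold lower mean in Ip6k1-/- MEFs. The difference was -2.25 (standard error 0.89, 95% interval -4.56 to 0.07, limma unadjusted p = 0.0551), rank 817 of 21572 probes by p. Of all probes tested 12.8% had genotypes that did not overlap with Ip6k1-/- lower. The lower line among Ip6k1-/- was line 1, the reverse of what C1s, C1r and C3 showed.

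**Figure D2:**
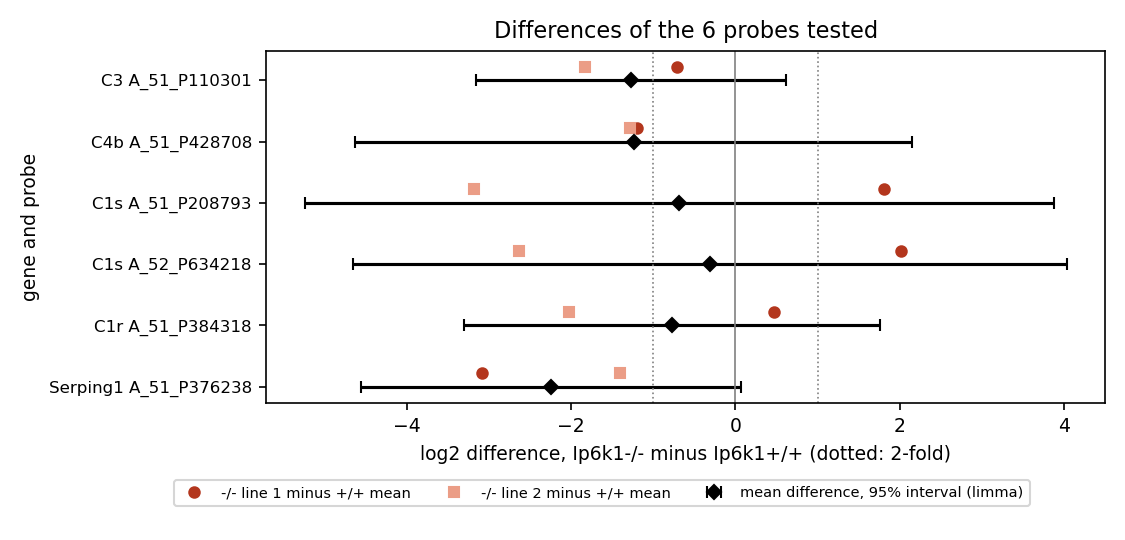
Log2 difference Ip6k1-/- minus Ip6k1+/+ (x axis) for the 6 complement probes tested (y axis). Diamonds and bars are the limma estimates with 95% intervals, coloured points are each Ip6k1-/- line minus the Ip6k1+/+ mean, and dotted lines mark 2-fold. Every interval includes 0, and the Ip6k1-/- lines fall on opposite sides of 0 for C1s and C1r.

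By a fold cutoff of 2, applied to the mean and requiring 0.9 on the log2 scale of both Ip6k1-/- lines separately, C4b and Serping1 were lower and no member was higher. These are 2 of the 5 gene names tested, beside 2.5% of all gene names tested that were lower and 1.49% that were higher. The count rested on Ip6k1+/+ line 1: without that line no member passed in either direction, and 5.03% of all gene names tested were lower. Without Ip6k1+/+ line 2 the lower members were C3, C4b, Cfb and Serping1, beside 7.64% of all gene names. Without Ip6k1-/- line 1 the 5 genes C3, C4b, C1s, C1r and Serping1 were lower (7.69% of all gene names), and without Ip6k1-/- line 2 C4b and Serping1 were lower and C1s was higher, beside 5.51% and 7.21% of all gene names. Cfb was counted without Ip6k1+/+ line 2 because it then passed the filter through Ip6k1+/+ line 1 alone, where it was high. Neither Ip6k1-/- array detected Cfb, so that count is no result about this gene. C4b also dropped out under normexp background correction and when a probe had to be well above background on all 4 arrays, which left Serping1 alone. Of all gene names 1.13% and 1.63% were lower in these settings.

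The differences of C3 and Serping1 kept their sign whichever line was left out. C3 ranged from -2.13 to -0.41 and Serping1 from -3.23 to -1.26. The C4b difference became 0.70 without Ip6k1+/+ line 1, where it rests on the undetected reading of Ip6k1+/+ line 2. The first C1s probe became 0.24 without Ip6k1+/+ line 1 and 1.81 without Ip6k1-/- line 2, the second 0.64 and 2.02, and C1r became 0.47 without Ip6k1-/- line 2. The median over the member probes tested ranged from -2.13 without Ip6k1+/+ line 2, where Cfb also entered, to 0.10 without Ip6k1+/+ line 1.

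**Figure D3:**
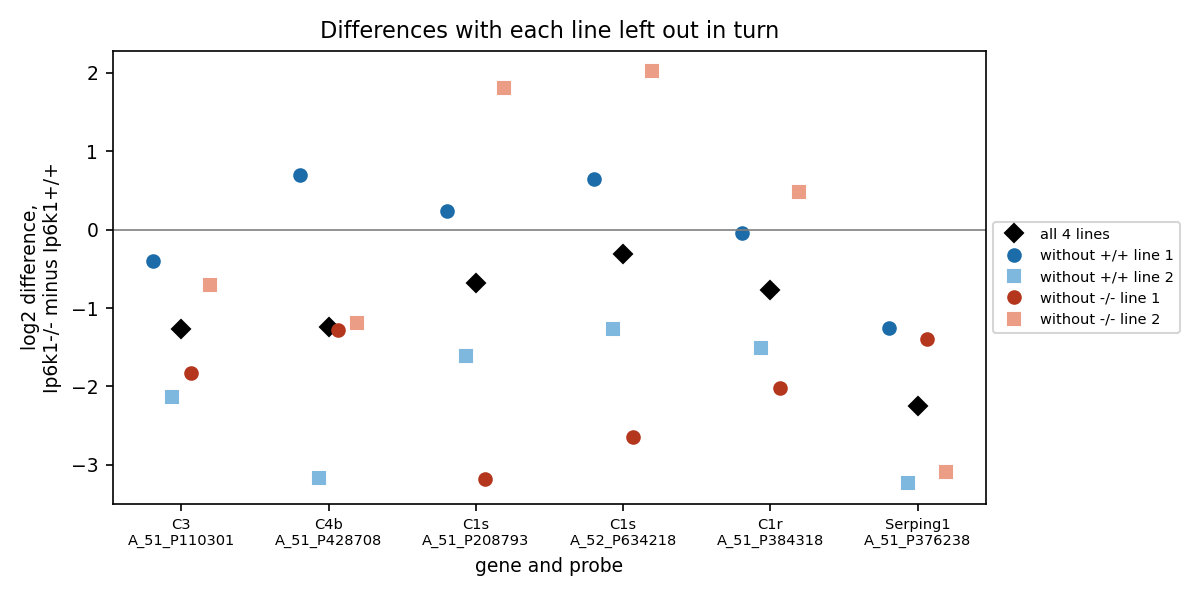
Log2 difference Ip6k1-/- minus Ip6k1+/+ (y axis) for the 6 complement probes tested (x axis), with all 4 lines (black diamonds) and with each line left out in turn (coloured symbols). C3 and Serping1 stay below 0 throughout, while C4b, C1s and C1r move to the other side of 0 when 1 line is removed.

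The differences between lines of the same genotype were large for these genes. The median gap between the Ip6k1+/+ lines was 1.88 over the 6 probes tested, beside 0.36 over all probes, and that between the Ip6k1-/- lines was 2.09 beside 0.31. For 5 of the 6 probes, all but Serping1, a gap within a genotype exceeded the difference between genotypes, which was the case for 81.0% of all probes tested. Ip6k1+/+ line 1 was the highest line for 4 of the 6 probes, beside 27.7% of all probes, and Ip6k1-/- line 1 for the C1s probes. Ip6k1-/- line 2 was the lowest for 4 of the 6, beside 22.3% of all probes. Line 1 exceeded line 2 in both genotypes for 5 of the 6 probes, against 28.2% of all probes tested, although for C4b the Ip6k1-/- lines were only 0.09 apart. The exception was Serping1. In cultures such as these a smaller share of cells expressing a gene and less RNA per cell cannot be told apart.

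**Figure D4:**
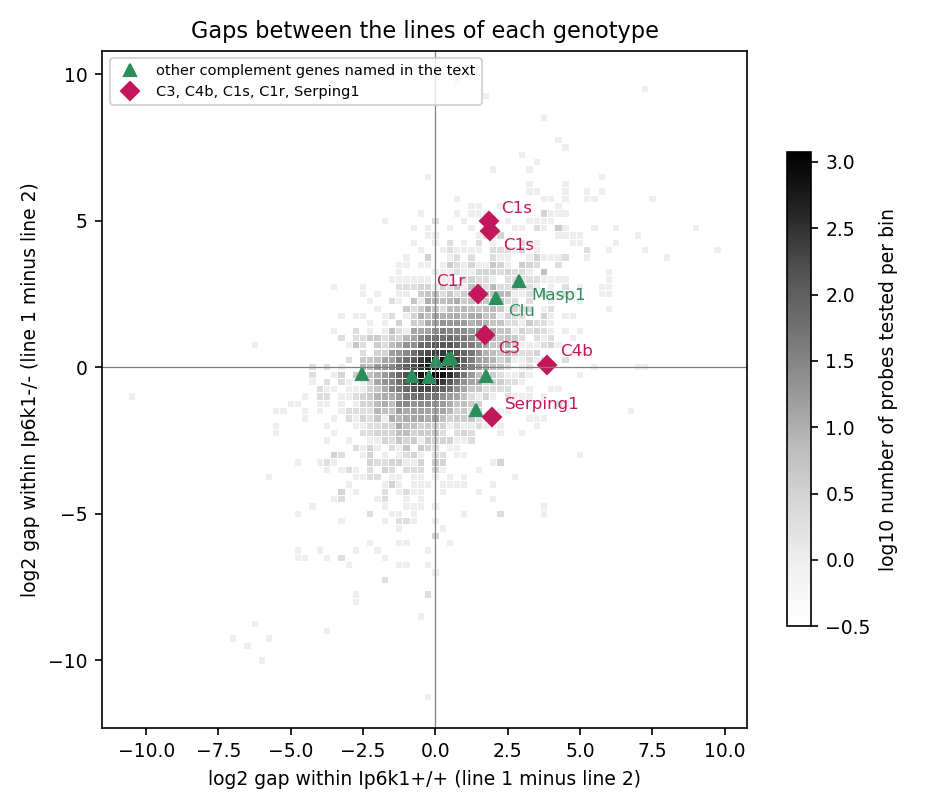
Log2 gap between line 1 and line 2 among Ip6k1+/+ (x axis) and Ip6k1-/- MEFs (y axis). Grey squares bin all probes tested by their number (log10 scale), diamonds are the complement probes and triangles the other complement genes named in the text. C1s, C1r and C3 lie in the upper right, where line 1 is the higher in both genotypes, with Masp1 and Clu beside them. C4b lies almost on the horizontal axis and Serping1 in the lower right.

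The remaining complement genes were described from a list of 50 further components, receptors and regulators, of which 47 had a probe. Only 22 of these were well above background on any array and 12 on all 4 arrays, and 16 genes with 19 probes were tested. None was called by limma, and 2 probes, of C8g and Colec12, had an unadjusted p under 0.05, beside 3.35% of all probes tested. The C8g probe was detected in Ip6k1+/+ lines only. By the fold cutoff 1 was lower and 1 higher, shares of 16 that stand beside the 2.5% and 1.49% of all gene names. The median difference of the 19 probes was -0.22, nearer to the 0.05 over all probes than the median of the members.

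Masp1 and Clu shared with C1s and C1r a higher signal in line 1 of each genotype. Masp1, a protease of the lectin pathway, read 3.97 and 1.09 in Ip6k1+/+ lines, against 3.80 and 0.87 in Ip6k1-/- lines on probe A_52_P247185. Its gap of 2.87 within Ip6k1+/+ and 2.93 within Ip6k1-/- exceeded the genotype difference of -0.20. Masp2, its relative, read -2.98 and -4.37 against -3.78 and -2.33 and differed by 0.63. C1rl, a C1r-like protease, read -1.66 and -2.09 in Ip6k1+/+ and -2.59 and -2.87 in Ip6k1-/- lines, a difference of -0.85 (limma unadjusted p = 0.0539) with genotypes that did not overlap. Colec12, a scavenger receptor of the collectin group, read 0.87 and 0.34 against -0.06 and -0.38, a difference of -0.82 (limma unadjusted p = 0.0439, adjusted p = 0.994). Its other probe differed by -0.66 with overlapping genotypes. On these probes C1rl and Colec12 had gaps of at most 0.53 between lines of a genotype, narrower than those of C1s and C1r.

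The terminal component C8g read -4.11 and -1.58 in the Ip6k1+/+ lines and went undetected among Ip6k1-/- lines, at -6.22 and -6.00. It was higher in Ip6k1+/+ by at least 3.65-fold (limma unadjusted p = 0.0156, adjusted p = 0.994). Such a bound sets the mean of the bright lines against the dimmest detected signal of each dim array, or the probe's own signal if higher. C8g passed the filter through the Ip6k1+/+ arrays alone, so its p-values rest in part on undetected readings and are no support. Nor is its count as lower. The C8g difference of -3.26 was -1.16 under normexp, smaller than that bound. It was -4.53 without Ip6k1+/+ line 1 and -2.00 without Ip6k1+/+ line 2. C8g was the gene counted as lower by the fold cutoff. Cd59a, a membrane inhibitor of the terminal complex, was the gene counted as higher, with 0.38 and -1.38 in Ip6k1+/+ and 0.42 and 0.71 in Ip6k1-/- lines. Its difference of 1.06 rested on the low Ip6k1+/+ line 2 and was 0.19 without it, and the other Cd59a probe differed by 0.94.

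Of the fluid-phase and membrane regulators, clusterin (Clu) read -0.38 and -2.47 in Ip6k1+/+ and -0.47 and -2.84 in Ip6k1-/- lines, a difference of -0.23. Like C1s and C1r it was higher in line 1 of each genotype, by 2.09 and 2.37. Cr1l, a membrane regulator of C3b and C4b, differed by -0.22 and varied little between lines. Properdin (Cfp), which stabilises the alternative convertase, differed by 0.41, and C1qbp, a mitochondrial protein that binds C1q, by 0.29. C2, chosen after its values were seen because it is cut by C1s and lies beside Cfb, read 0.88, -2.87, -4.82 and -0.05 in Ip6k1+/+ lines 1 and 2 and Ip6k1-/- lines 1 and 2 on probe A_51_P497985. Ip6k1+/+ line 1 was again the highest and Ip6k1-/- line 1 the lowest, and Serping1 had the same highest and lowest lines. The C2 reading of -4.82 lay under the lowest signal well above background on that array, -4.75.

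Genes that control acute-phase and complement transcription had differences below 0 for 21 of 31 probes tested, beside 44.1% of all probes, with a median of -0.17. Of 22 genes listed 19 were tested, 4 passed the fold cutoff as lower (Il6, Cebpb, Nfkb1 and Il1r1) and none as higher, beside 2.5% and 1.49% of all gene names. None was called by limma, and 4 probes, of Il6, Nfkb1 and Cebpb, had an unadjusted p under 0.05, beside 3.35% of all probes tested. Il6, which encodes interleukin 6, an inducer of C3 and other acute-phase genes, read -1.45 and -2.33 in Ip6k1+/+ lines, against -5.02 and -4.80 in Ip6k1-/- lines, both under the detection flag. Il6 was higher in Ip6k1+/+ by at least 7.07-fold (limma unadjusted p = 0.00109, adjusted p = 0.713). Il6 passed the filter through the Ip6k1+/+ arrays alone, so its p-values rest in part on undetected readings and are no support. Nor is its place in the count of lower genes. Its difference of -3.02 was -2.49 with the deposited log2 values and -1.40 under normexp background correction, both smaller than that bound. Both Ip6k1+/+ lines exceeded both Ip6k1-/- lines, with a gap of 0.88 between the Ip6k1+/+ lines, so that Il6 did not share the wide line spread of C3 and C4b.

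Cebpb, a C/EBP transcription factor, read 2.68 and 2.33 in Ip6k1+/+ and 1.54 and 1.06 in Ip6k1-/- lines on probe A_52_P605846. The difference was -1.21 (standard error 0.27, limma unadjusted p = 0.00742, adjusted p = 0.994), and that of its other probe was -0.85. Il1r1, the interleukin 1 receptor, differed by -1.05 and had genotypes that did not overlap. Nfkb1, a subunit of NF-kappa B, differed by -1.17 on probe A_52_P569539, but its other 3 probes differed by -0.51, 0.09 and 0.13. Without Ip6k1+/+ line 1 the differences of Nfkb1 and Il1r1 were -0.67 and -0.49, under the cutoff. Without Ip6k1-/- line 2 those of Cebpb and Il1r1 were -0.97 and -0.91, also under it, and Il1r1 fell just short with the median of the array in place of its 75th percentile. Of genes that did not pass the cutoff, Stat3 differed by -0.92, Irf1 by -0.85, Il6st by -0.72 and Relb by -0.68. Nfkbia differed by -1.00, with 1 array saturated for its probe. Without Ip6k1+/+ line 1 the differences were -0.15 for Stat3, -0.03 for Il6st, 0.026 for Irf1 and -0.19 for Nfkbia. The Nfkbia difference was 0.012 without Ip6k1-/- line 2. For Stat3, Irf1, Il6st and Nfkbia the highest line was Ip6k1+/+ line 1 and the lowest Ip6k1-/- line 2, as for C3. This order was common among the named genes. Relb, Cebpb, Il1r1, Serpina3g, C1rl, Colec12, Clu, Cr1l and Masp1 had it too, and its share of all probes was not worked out.

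Of 14 acute-phase protein genes listed beside complement, 5 were tested with 7 probes, 2 were lower by the fold cutoff (Cp and Serpina3g) and none was higher, beside 2.5% and 1.49% of all gene names, and none was called by limma. Cp, the copper carrier ceruloplasmin, read -3.94 and -2.14 in the Ip6k1+/+ lines, went undetected among Ip6k1-/- lines, and had a bound of at least 3.19-fold in favour of Ip6k1+/+ (limma unadjusted p = 0.00533, adjusted p = 0.994). Its difference of -3.27 was -1.03 under normexp, smaller than that bound. Cp too passed the filter through the Ip6k1+/+ arrays alone, so its p-values and its place in the count of lower genes are no support. Serpina3g, a serine protease inhibitor, read 2.15 and 1.89 against 0.87 and 0.47, a difference of -1.35 (standard error 0.25, limma unadjusted p = 0.00371, adjusted p = 0.994). Ptx3, a pentraxin that binds C1q, read 3.83 and 1.63 against 1.21 and 1.96 on probe A_52_P26161, so that its difference of -1.15 came with overlapping genotypes and a high Ip6k1+/+ line 1, without which it was -0.04.

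**Figure D5:**
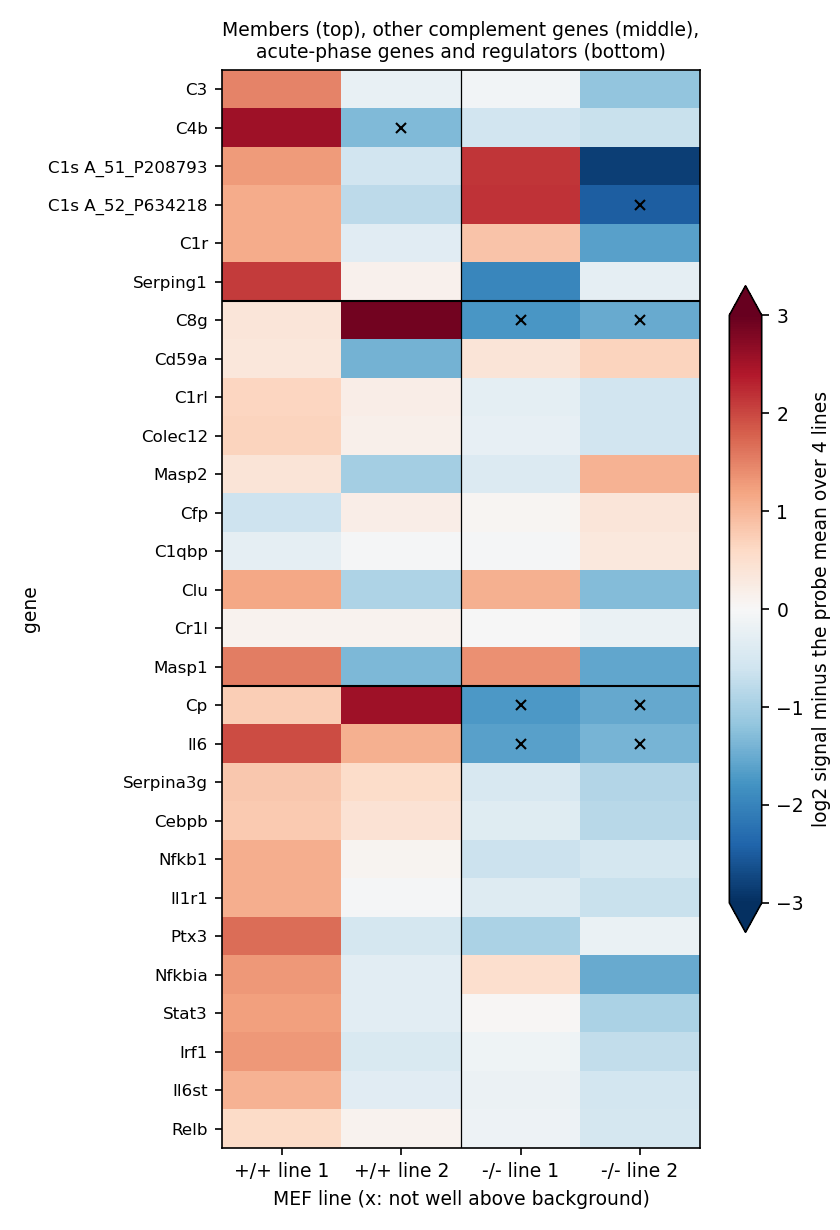
Log2 signal of each named probe minus its mean over the 4 lines (colour scale) in the 4 MEF lines (x axis), for the complement probes tested (top), other complement genes (middle) and acute-phase genes and their regulators (bottom). Crosses mark arrays on which a probe was not well above background. C4b, C1s and Serping1 vary between lines of a genotype more than Serpina3g, Cebpb, C1rl and Colec12, which separate by genotype.

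Promoter sequence from RefSeq (GRCm38.p6) was at hand for 3 of the 6 genes, C3, C1s1 and C1ra, and is shown because C1s and C1r were both higher in line 1 of each genotype and because a C/EBP gene is among the regulators above. Each line gives the 250 bases before an annotated start, 5′ to 3′ on the gene's strand, with matches to the motifs searched in capitals. For C1s1 2 starts were listed, and only the window of the first is shown and described.
C3, chr17:57228137-57228386, minus strand: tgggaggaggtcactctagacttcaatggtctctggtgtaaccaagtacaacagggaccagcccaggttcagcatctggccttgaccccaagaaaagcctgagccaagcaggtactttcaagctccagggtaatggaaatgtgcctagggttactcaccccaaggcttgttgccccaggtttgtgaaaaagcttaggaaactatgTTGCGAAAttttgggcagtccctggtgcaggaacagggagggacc
C1s1, chr6:124542360-124542609, minus strand: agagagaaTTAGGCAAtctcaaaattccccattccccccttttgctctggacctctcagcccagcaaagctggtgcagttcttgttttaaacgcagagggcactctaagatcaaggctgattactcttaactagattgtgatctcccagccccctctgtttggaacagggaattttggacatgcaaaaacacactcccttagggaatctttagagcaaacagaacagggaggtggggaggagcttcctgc
C1ra, chr6:124512371-124512620, plus strand: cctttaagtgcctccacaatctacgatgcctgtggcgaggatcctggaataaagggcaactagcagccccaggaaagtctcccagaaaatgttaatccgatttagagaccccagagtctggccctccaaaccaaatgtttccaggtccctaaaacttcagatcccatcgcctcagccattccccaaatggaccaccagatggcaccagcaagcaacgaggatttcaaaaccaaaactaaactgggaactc
The motifs searched on both strands were the C/EBP core TTGCNNAA, the STAT element TTCNNNGAA, an interferon response element, the TATA box TATAAA and the NF-kappa B consensus. The C/EBP core was found in C3, at bases -45 to -38 from the start, and on the opposite strand in C1s1, at -242 to -235, and it occurs in 9.56% of the 32851 promoter windows of this length. The other motifs, held by 7.02%, 2.98%, 12.4% and 7.25% of windows in the order named, were in none of the 3 windows, and C1ra held none of the 5. These letters are a description of the window and say nothing of binding in MEFs.

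The genes whose profiles over the 4 lines lay closest to each member were found by the root mean square difference of log2 signals after removing each probe's mean, over the 19955 probes detected by every array. For C3 they were the clock gene Per2 (0.07), the NF-kappa B feedback inhibitor Tnfaip3 (0.07) and Cdc42ep1 (0.10). Tnfaip3 read 3.40 and 1.55 in Ip6k1+/+ and 1.70 and 0.74 in Ip6k1-/- lines. For C1s, on the brighter probe, they were the netrin receptor Unc5c (0.21), the chemokine Ccl20 (0.27) and the aquaporin Aqp5 (0.31). For C1r they were Hopx (0.07), 1190002H23Rik (0.10) and Rab32 (0.11). Serping1 had no neighbour as close, the nearest being the Eph receptor Epha7 (0.39), Plscr2 (0.45) and Lgr4 (0.47). With 4 lines many probes lie near any profile, and likeness is given as a description.

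Fibroblast markers also varied with the lines. By the fold cutoff the matrix proteoglycan Dcn and the receptor Pdgfrb were lower in Ip6k1-/- MEFs, 2 of 11 marker genes beside 2.5% of all gene names tested. Lum, another small proteoglycan, read -1.45 and -4.97 in Ip6k1+/+ and -3.14 and -6.95 in Ip6k1-/- lines, higher in line 1 of each genotype as C1s and C1r were. Their part in the complement values was not tested. Hepatocyte markers were nearly absent, with at most 1 of 7 above background in a line, and the albumin gene undetected. Endothelial markers were detected for 1 or 2 of 6 genes and epithelial markers for 2 to 4 of 6. The share of complement signal that could come from leukocytes was not tested.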

How the data were processed

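RNA of 2 Ip6k1+/+ and 2 Ip6k1-/- MEF lines was labelled with Cy3 from oligo-dT primed cDNA and hybridised, 1 array per line, on 1 slide of design 014868. The authors deposited spot intensity from Feature Extraction 10.5.1.1, background-corrected by that software, and log2 values shifted in GeneSpring by the 75th percentile. The columns of this log2 table have medians of -4.08, -4.04, -4.08 and -4.13 and differ from the values computed here by 0.08 to 0.10 per array, with a median deviation of 0.0025, so that neither centring of genes nor a change of direction was found.

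From the intensity, log2 was taken and the 75th percentile of 43379 non-control spots was subtracted on each array. Outlier-flagged spots (96 to 133 per array) were left out, saturated spots kept, and spots of 1 probe averaged. The 21572 probes flagged well above background by both arrays of either genotype were fitted in limma 3.58.1 (R 4.3.3; lmFit, then eBayes allowing a mean-variance trend), and p-values were adjusted by Benjamini-Hochberg over all of them. A gene name passed the fold cutoff if any probe did. Code was tested on simulated data.

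The members and the gene lists were chosen with earlier results of these data known. Beyond the members, genes were named if past the fold cutoff, and otherwise if among the largest differences of their list (8 complement genes, 6 acute-phase genes and regulators). Probe names and positions are those of the array files, and current symbols come from RefSeq. Alternatives covered background correction, normalization, the filter and floor for dim probes, the deposited values, outlier spots, the variance trend, the methods' t-test, the fold rule, a replicate block and leaving out each line. With 4 arrays, their number limits the precision.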

Additional observations from a re-analysis of the deposited data

How the results depend on the processing

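No member was called by limma under any alternative, where the adjusted p of the 6 probes lay between 0.34 and 1.00, nor by the methods' t-test, whose lowest unadjusted p was 0.226 (Serping1). Under normexp the C1s probe A_52_P634218 differed by 0.18 in place of -0.31, 1 member gene name was lower by the fold cutoff in place of 2, and 0 other complement genes were higher in place of 1. Of all gene names 1.13% were lower and 0.349% higher in that setting. With dim values raised to the lowest signal well above background that C1s probe differed by 0.17. Without a filter on dim probes 4 other complement genes were lower and 2 higher, beside 3.16% and 1.35% of all gene names. With probes well above background on all 4 arrays 1 member and 0 other complement genes were lower, beside 1.63% of all gene names. With the mean difference alone 3 other complement genes were lower, beside 5.23% of all gene names. Leaving out each line moved the count of members from 0 to 5 lower and from 0 to 1 higher, that of other complement genes from 2 to 8 lower and from 0 to 4 higher, and the member median from -2.13 to 0.10. Over all gene names 5.03% to 7.69% were then lower and 1.57% to 7.83% higher. In these fits the lone line was assumed to vary like the others. The differences ranged from -3.17 to 0.70 for C4b, from -3.18 to 1.81 and from -2.64 to 2.02 for the C1s probes, from -2.02 to 0.47 for C1r, from -1.42 to 0.96 for Clu, from -1.66 to 1.27 for Masp1, from -0.10 to 1.35 for Masp2, from -1.72 to 0.026 for Irf1 and from -2.01 to 0.012 for Nfkbia. The cause was not tested, beyond the line left out. C3 and Serping1 kept their direction throughout. The replicate numbers carry no pairing in the labels. With the replicate number as a block the same number of probes, 3, was called, 1757 in place of 723 probes had an unadjusted p under 0.05, and no member was called (C3 -1.27, limma adjusted p = 0.434). With the block C3 had a limma unadjusted p of 0.00842 and Serping1 of 0.0513, so that the absence of members under 0.05 unadjusted holds without the block only. Deviations of same-numbered lines correlated at 0.48 over all probes.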

Other observations

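Acute-phase transcripts detected in a single line were most often seen in Ip6k1+/+ line 1. Of the acute-phase probes listed, 3 were well above background in that line only, and none in any other line only. They belonged to Serpina3n (-0.85, against -6.60 in Ip6k1+/+ line 2 and -6.81 and -6.78 in the Ip6k1-/- lines), Crp (-3.16) and Hp (-4.17). Of probes of the other complement genes, 4 were above background in Ip6k1+/+ line 1 only and 1 in Ip6k1+/+ line 2 only. For Ip6k1-/- lines 1 and 2 these counts were 0 and 1. Those seen in Ip6k1+/+ line 1 only, as Cfb was, included probes of the regulators C4bp (-3.34), Cd55 (-3.83) and Cd59b (-4.33). Of all probes on the array 1.42% were above background in that line only, 1.96% in Ip6k1+/+ line 2 only, 0.872% in Ip6k1-/- line 1 only and 0.663% in Ip6k1-/- line 2 only. These genes were picked out after their values were seen, and no test was made of them.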
